A study of Mus musculus with 20 samples.

Results

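The miR-26 family of mouse neurons was followed here through its 5 mature forms, mmu-miR-26a-5p, mmu-miR-26b-5p, mmu-miR-26a-1-3p, mmu-miR-26a-2-3p and mmu-miR-26b-3p. They were chosen by name, and all 5 were present among the 1481 mature miRNA features measured. The libraries came from primary cortical neurons taken from mouse cortices at embryonic day 15 and grown for 7 days, labelled with the strain C57BL/6N-Cdr1asem1Nikr in both genotypes. The neurons were wild type (WT) or ciRS-7 KO. ciRS-7, also called Cdr1as, is a neuronal circular RNA with many binding sites for miR-7, and it is not itself read in these small RNA tables. All cultures were given fresh medium for 12 h, either under normoxia (5% CO2, 37 °C, with 25 mM glucose and 0.2 mM pyruvate) or under oxygen-glucose deprivation (OGD, a dish model of ischaemia, with 1% O2, 5% CO2, 37 °C and no glucose or pyruvate added). Each of the 4 groups held 5 libraries, described by the submitters as biological replicates. The labels do not say which cultures came from which embryos.

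miRNAs are short RNAs that guide Argonaute proteins to messenger RNAs, mainly by pairing of their seed, bases 2 to 8. A hairpin precursor yields 2 arms, the 5p and the 3p; usually 1 arm is kept in Argonaute as the guide and the other is degraded. The miR-26 genes lie in introns of the Ctdsp genes, which encode small phosphatases that act with the repressor REST to silence neuronal genes outside neurons. miR-26 is known to repress its own Ctdsp hosts, and its level rises as neurons differentiate.

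The mature sequences are shown because the family divides by seed, and because 1 of them cannot be traced to its gene. They are given 5′ to 3′ as RefSeq lists them (GRCm38.p6), with the seed in capitals.
miR-26a-5p: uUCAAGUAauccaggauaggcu
miR-26b-5p: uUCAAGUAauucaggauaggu
miR-26a-1-3p: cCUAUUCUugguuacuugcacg
miR-26a-2-3p: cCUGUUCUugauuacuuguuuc
miR-26b-3p: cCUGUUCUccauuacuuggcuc
miR-26a-5p and miR-26b-5p shared the seed UCAAGUA. Counted from 1 at the 5′ end, miR-26b-5p differed from miR-26a-5p by C11U and C21U and was 1 base shorter (21 against 22 bases). How reads that fit both were assigned is not given in the sources used here. miR-26a-2-3p and miR-26b-3p shared the seed CUGUUCU, while the seed of miR-26a-1-3p was CUAUUCU, with A4G as the seed difference from miR-26a-1-3p to miR-26a-2-3p. Among the 1248 features that matched a RefSeq mature name, none outside the family had the seed of the 5p arms or that of miR-26a-1-3p. The seed CUGUUCU was also that of miR-6932-3p and miR-7039-3p, which averaged 0.804 and 0.301 CPM over all 20 libraries. CPM here is counts per 1e+06 of a library total scaled by the authors' library factors, which is 0.923 to 1.08 times the plain read total, so CPM and a share of reads do not rank libraries alike.

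The stretches from the first base of the 5p arm to the last base of the 3p arm show why only the 3p arms tell the 2 miR-26a genes apart. The arms are in capitals.
Mir26a-1: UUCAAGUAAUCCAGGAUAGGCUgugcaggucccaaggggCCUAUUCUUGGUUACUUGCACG
Mir26a-2: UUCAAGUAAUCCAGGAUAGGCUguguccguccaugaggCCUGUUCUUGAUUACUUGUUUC
Mir26b: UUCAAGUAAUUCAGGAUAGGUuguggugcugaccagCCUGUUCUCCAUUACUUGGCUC
All lie on the plus strand of their chromosome and of their host gene in GRCm38.p6, the build also named mm10 in the submitters' processing notes. The Mir26a-1 stretch is at chr9:119031811-119031871, within an intron of all 3 annotated transcripts of Ctdspl that span it. The Mir26a-2 stretch is at chr10:126995543-126995602, in intron 5 of 7 of the Ctdsp2 transcript that spans it. The last base of the whole Mir26a-2 hairpin, 126995613, is also the first base of 2 shorter Ctdsp2 transcripts, an overlap of 1 base. The Mir26b stretch is at chr1:74394324-74394381, in intron 4 of 6 of the protein-coding Ctdsp1 transcript. The identical 5p arms of Mir26a-1 and Mir26a-2 are counted together as miR-26a-5p. Host messenger RNAs are not read by these libraries.

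Read totals ran from 1160582 to 12477032 per library. Within each genotype OGD libraries were shallower on the whole: 1160582 to 4374002 reads after OGD and 2492065 to 9117862 in normoxia for WT, 1811589 to 3119212 and 5884616 to 12477032 for KO. The labels name no batch. On the first principal component, which held 84.2% of the variance, the normoxic KO libraries were spread from -15.33 to -6.98, with replicates 2 and 4 at -7.08 and -6.98. The OGD libraries stood between 7.78 and 15.79. Furthest from its group was the normoxic WT library of replicate 5, at -0.61 while the other normoxic WT libraries stood between -15.63 and -14.52. The tests of the miR-26 forms, their ratios and their share that rest on the normoxic WT group are therefore also given without it. Neuron markers summed to between 48299 and 90858 CPM in the 20 libraries. The sum over 4 leukocyte and microglia markers was at most 5.19 CPM and that over 3 oligodendrocyte markers at most 15.3 CPM, and endothelial markers summed to 269 to 393 CPM. No marker was at 0 throughout a group.

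Over the 20 libraries miR-26a-5p carried nearly all reads of the family. It ranked between 8th and 10th of all features in every library, and its mean levels were 25305 ± 1860 CPM in normoxic WT neurons, 28420 ± 1027 after OGD in WT, 25348 ± 2169 in normoxic KO neurons and 28532 ± 2550 after OGD in KO (SD, n = 5 each). miR-26b-5p, of the same seed, ranked between 70th and 92nd. Mature miRNAs are of nearly equal length, so these levels need no length correction, although ligation and amplification can favour some sequences. Of all reads of the 5 forms, miR-26a-5p made up 95.9% to 97.3% in each library. The passenger arms were rare. miR-26a-2-3p ranked between 288th and 525th, miR-26b-3p between 484th and 778th and miR-26a-1-3p between 533rd and 1195th. A floor of 3 reads equals 0.249 to 2.55 CPM across the libraries, so miR-26b-3p and miR-26a-1-3p lay close to what the depth can show; the floor covers counting error only, and reads without molecular identifiers are not independent molecules.

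**Figure D1:**
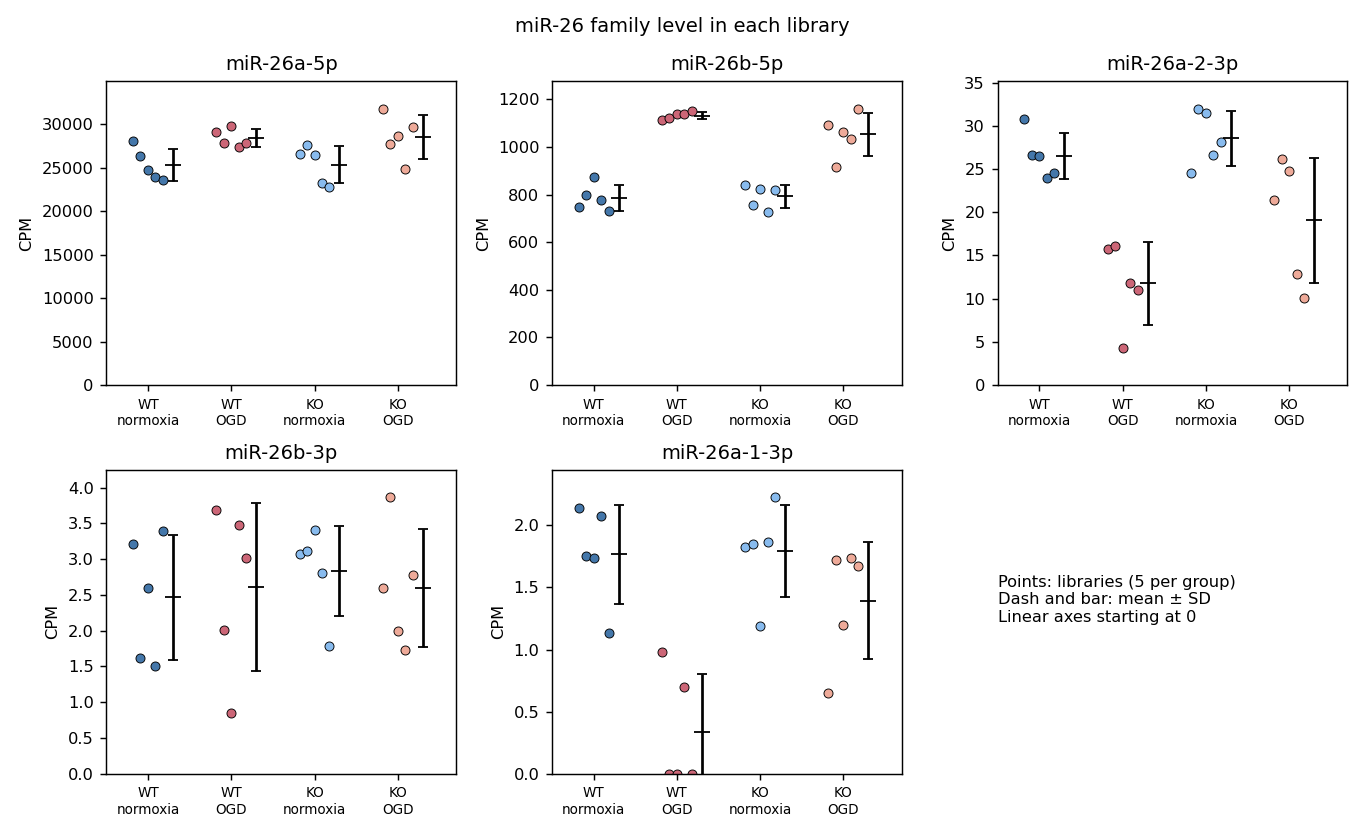
Level of each miR-26 form in CPM (linear axes from 0) in each of the 20 libraries, by genotype and treatment; points are libraries, and the dash with its bar is the mean ± SD of 5. miR-26b-5p after OGD lies above normoxia in both genotypes, whereas miR-26a-2-3p after OGD lies below it without overlap in WT and with overlap in KO.

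The OGD comparison asks how 12 h in 1% O2 with no glucose or pyruvate added changed each form within a genotype. On the CPM scale, miR-26b-5p rose in both genotypes, and the 3p arm of Mir26a-2 fell in both. miR-26a-1-3p fell in WT. miR-26a-5p and miR-26b-3p did not pass the test in either genotype. Changes were tested with limma on log2(CPM + 0.5), which understates changes of rare forms, with Benjamini-Hochberg adjustment over all features and a threshold of 0.05. In WT, 1 member was called higher and 2 lower out of 5, where 18.7% of all 1478 features tested were called higher and 4.40% lower, or 23.1% in all. In KO, 1 was called higher and 1 lower, against 18.8% and 5.75% of 1479 features, 24.5% in all. The median log2 change of the 5 members was 0.0092 in WT and -0.12 in KO, against 0.32 and 0.24 over all features tested.

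The direction of the common forms depends on the scale. Centring each library on the median of features with at least 8 CPM moved every log2 change down by 0.54 in WT and by 0.48 in KO. It turned 276 higher and 65 lower calls in WT into 109 and 248, and 278 and 85 in KO into 114 and 301. Changes of members are therefore also given relative to that shift, and the read ratios within a library, further on, do not use it.

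miR-26b-5p is the less abundant carrier of the miR-26 seed. In normoxic WT libraries 1 to 5 it was at 747, 798, 874, 779 and 731 CPM, and after OGD at 1112, 1122, 1137, 1138 and 1150 CPM. In KO libraries 1 to 5 it was at 839, 754, 824, 728 and 818 CPM in normoxia and at 1092, 915, 1064, 1035 and 1161 CPM after OGD. All 5 OGD libraries of each genotype lay above all 5 normoxic ones, and the OGD libraries of WT lay close together (SD 14.8 CPM). Among all features, 13.4% were higher without overlap in WT and 15.3% in KO. miR-26b-5p rose after OGD by 0.53 in WT on the log2 scale (SE 0.089, 1.44-fold, limma adjusted p = 1.9e-04), but with centred libraries the change was -0.01 (adjusted p = 0.96). In KO it rose by 0.41 (SE 0.082, 1.33-fold, limma adjusted p = 0.0012), and with centred libraries the change was -0.07 (adjusted p = 0.599). With quantile normalization it stayed called, at 0.42 in WT (limma adjusted p = 6.2e-04) and 0.34 in KO (adjusted p = 0.0056). Without the normoxic WT library of replicate 5 the WT change was 0.50 (limma adjusted p = 1.3e-04).

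miR-26a-5p is the main carrier of the seed. Normoxic WT libraries 1 to 5 held 28033, 26294, 24770, 23885 and 23541 CPM, and the OGD libraries 29127, 27869, 29846, 27376 and 27882 CPM. In KO the normoxic libraries held 26602, 27587, 26506, 23229 and 22818 CPM and the OGD libraries 31785, 27671, 28670, 24872 and 29660 CPM. The groups overlapped in both genotypes: 2 of 5 WT and 4 of 5 KO libraries after OGD lay above all normoxic libraries of their genotype. This overlap depends on the denominator. As a share of plain read totals, miR-26a-5p was 2.44% to 2.59% in normoxic WT libraries and 2.71% to 3.03% after OGD, without overlap, while in KO it was 2.32% to 2.80% and 2.68% to 3.13%, with 3 of 5 OGD libraries above all normoxic ones. On CPM 13.4% of all features were higher without overlap in WT, and no such share was counted on plain read totals. A fit on CPM from plain read totals gave 0.18 in WT (limma adjusted p = 0.053) and 0.16 in KO (adjusted p = 0.123), neither called. The log2 difference was 0.17 in WT (SE 0.081, 95% interval -0.00096 to 0.34, limma adjusted p = 0.148) and 0.17 in KO (SE 0.084, -0.0081 to 0.35, adjusted p = 0.163). In centred libraries the sign turned and the test was passed, at -0.37 in WT (limma adjusted p = 0.020) and -0.31 in KO (adjusted p = 0.021), while quantile normalization gave 0.15 in WT (adjusted p = 0.077) and a called 0.18 in KO (adjusted p = 0.024), and limma voom a called 0.17 in KO (adjusted p = 0.042). Without the normoxic WT library of replicate 5 the WT difference was 0.14 (limma adjusted p = 0.219). Which direction is reported for miR-26a-5p therefore depends on the scaling.

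As a share of plain read totals, without the authors' factors, the 5 forms together made up 2.53% to 2.66% in normoxic WT libraries and 2.82% to 3.14% after OGD, with no overlap. The mean went from 2.58% ± 0.057 to 2.96% ± 0.15 (SD, n = 5; exact two-sided permutation test p = 0.0079, the smallest that 5 against 5 allows, adjusted p = 0.0317 over 4 tests). Without the normoxic WT library of replicate 5 the difference was 0.372 percentage points, the same as with it at this rounding. In KO the share was 2.40% to 2.88% in normoxia and 2.78% to 3.24% after OGD, and the means of 2.64% ± 0.18 and 2.96% ± 0.19 did not pass the adjusted threshold (exact permutation p = 0.0317, adjusted p = 0.0635). Without miR-9-5p, the most abundant feature, in the total the KO share did pass (difference 0.503 percentage points, exact permutation adjusted p = 0.0476), as it did without the normoxic KO library of replicate 2 (0.380 points, exact permutation adjusted p = 0.0317). Of the family reads miR-26a-5p made up 95.9% to 97.3%, so this share largely repeats that form and is no separate result. In WT limma did not call miR-26a-5p on plain read totals (adjusted p = 0.053), and centred libraries gave a called -0.37. How many features separate without overlap on plain read totals was not counted.

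miR-26a-2-3p, the passenger arm of Mir26a-2 and the most abundant 3p form, fell after OGD. Normoxic WT libraries 1 to 5 held 30.8, 26.6, 26.5, 24.0 and 24.6 CPM, from 65 to 259 reads, and the OGD libraries 15.7, 16.1, 4.25, 11.8 and 11.0 CPM, from 5 to 64 reads. Every OGD library lay below every normoxic one in WT, a pattern that 2.57% of all features showed. The log2 change was -1.26 (SE 0.27, limma adjusted p = 0.0021), and -1.28 without the normoxic WT library of replicate 5 (adjusted p = 0.0020). With centred libraries it was -1.79 (limma adjusted p = 1.0e-04). When all libraries were thinned to the smallest total, the difference was -1.13 and the call was lost (limma adjusted p = 0.094).

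In KO the same arm was at 24.5, 32.0, 31.5, 26.6 and 28.2 CPM in normoxia, from 185 to 295 reads, and at 21.5, 26.2, 24.7, 12.8 and 10.03 CPM after OGD, from 18 to 66 reads. The groups overlapped, with 3 of 5 OGD libraries below all normoxic ones; 3.78% of all features were lower without overlap in KO. The log2 difference was -0.66 (SE 0.23, limma adjusted p = 0.043), and -1.14 with centred libraries (adjusted p = 8.9e-04). It stayed negative but lost the call when thinned (-0.57, limma adjusted p = 0.296), when all 20 libraries shared 1 fit (adjusted p = 0.079) and in 8 of 10 fits that each left out 1 library, where the difference ran from -0.72 to -0.46. Those 8 left out any of the 5 normoxic KO libraries or the OGD KO libraries of replicates 1, 4 or 5.

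miR-26a-1-3p, the passenger arm of Mir26a-1, had few reads. In normoxic WT libraries 1 to 5 it had 18, 14, 14, 11 and 3 reads, or 2.14, 1.75, 1.73, 2.08 and 1.13 CPM. After OGD it had 4, 0, 0, 1 and 0 reads, or 0.983, 0, 0, 0.695 and 0 CPM. All OGD libraries of WT lay below all normoxic ones, a pattern that 2.57% of all features showed. Of these OGD libraries, however, 3 held no read (replicates 2, 3 and 5). A floor of 3 reads equals 1.21, 2.55 and 1.51 CPM there, within or above the normoxic range, so 0 reads alone do not place them below normoxia. The fitted change was -1.60 (SE 0.39, limma adjusted p = 0.0052) and lost the call when thinned (-1.38, adjusted p = 0.159). Its size depends on the pseudocount, with -2.14 for 0.25 CPM and -1.11 for 1 CPM (limma adjusted p = 0.0061 and 0.0049). On the deposited values, which are not on a log2 scale, the difference was -5.83 score units (limma adjusted p = 0.027). Without the normoxic WT library of replicate 5 it was -1.71 (limma adjusted p = 0.0041), and with centred libraries -2.13 (adjusted p = 4.0e-04). Summed over libraries, 5 reads after OGD against 60 in normoxia gave a ratio of CPM of 0.242, with a 95% interval of 0.0758 to 0.597 for counting error only. Of those 5 reads 4 came from the OGD WT library of replicate 1; without it 1 read against 60 gave a ratio of 0.0762 (0.0019 to 0.441). Leaving out each of the other libraries gave 0.222 to 0.311, with 0.234 for the normoxic WT library of replicate 5.

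In KO neurons miR-26a-1-3p had 22, 16, 7, 20 and 20 reads in normoxia and 2, 4, 3, 5 and 3 reads after OGD, or means of 1.79 ± 0.37 and 1.39 ± 0.47 CPM (SD, n = 5). The log2 difference was -0.30 (limma adjusted p = 0.491), and -0.78 with centred libraries (adjusted p = 0.051). Without the OGD KO library of replicate 1 it was -0.13. It turned to 0.82 in thinned libraries (adjusted p = 0.503) and was called at -0.81 with quantile normalization (adjusted p = 0.028).

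miR-26b-3p, the passenger arm of Mir26b, was at 2.47 ± 0.87 and 2.61 ± 1.18 CPM in WT normoxia and OGD and at 2.84 ± 0.63 and 2.60 ± 0.83 CPM in KO (SD, n = 5), from 1 to 37 reads per library. The groups overlapped. Its log2 differences were 0.0092 in WT (95% interval -0.75 to 0.77, limma adjusted p = 0.987) and -0.12 in KO (-0.68 to 0.43, adjusted p = 0.775), so on this scaling changes within these bounds cannot be set aside. In WT the sign turned with centred libraries (-0.53) and with quantile normalization (-0.66), neither called. In KO centred libraries gave -0.60 (limma adjusted p = 0.0997), and leaving out each library in turn gave -0.26 to -0.02. The WT difference was 0.12 without the normoxic WT library of replicate 5.

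**Figure D2:**
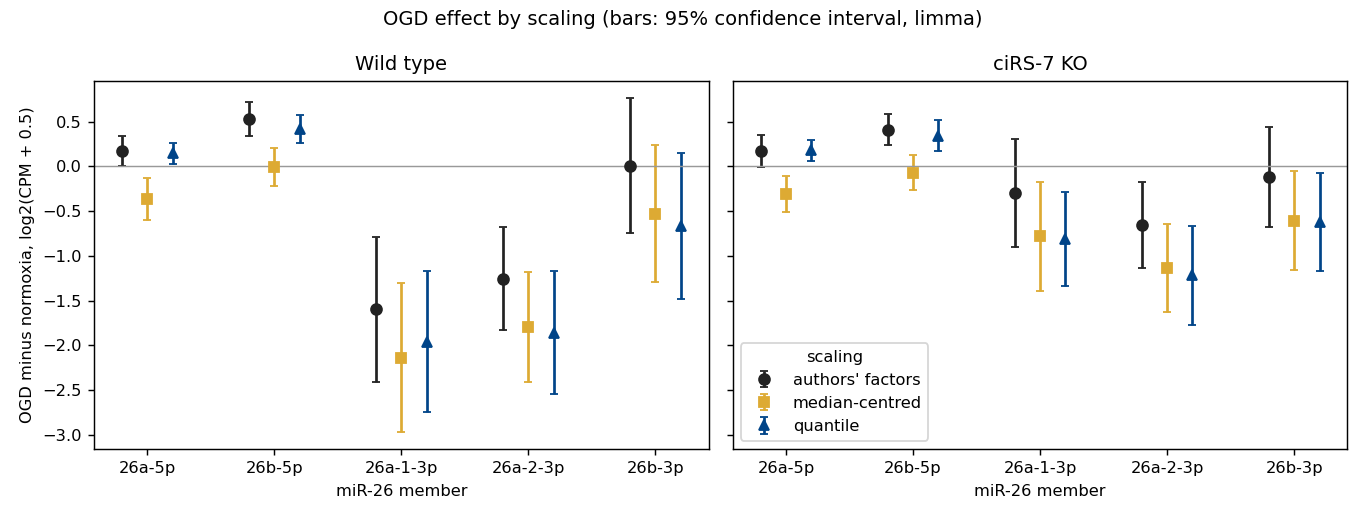
OGD minus normoxia on the log2(CPM + 0.5) scale for each miR-26 form in WT (left) and KO (right) under 3 scalings between libraries; points are limma estimates and bars their 95% confidence intervals. miR-26a-5p and miR-26b-5p lie above 0 with the authors' factors and with quantile scaling and below 0 with median-centred libraries, while miR-26a-2-3p lies below 0 under all 3.

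Reads of 2 forms within a library can be compared without any scaling between libraries. The ratio of miR-26a-5p to miR-26b-5p was lower after OGD, and that of miR-26a-5p to its 3p arms higher. None of the 16 ratio tests passed after adjustment over the 16. The exact permutation test of 5 against 5 cannot go below 0.0079. The WT ratios of miR-26a-5p to miR-26b-5p and to its 3p arms both stood at that floor, where their adjusted p was 0.0635. Whatever the size of the change, it could fall further only if other tests of the 16 had lower p-values. Failing the adjusted threshold is therefore no sign that these ratios were unchanged.

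In normoxic WT libraries 1 to 5 there were 37.5, 33.0, 28.3, 30.7 and 32.2 reads of miR-26a-5p per read of miR-26b-5p, and after OGD 26.2, 24.8, 26.2, 24.0 and 24.2. All 5 OGD libraries lay below all normoxic ones, and how often ratios of other miRNAs of a shared seed do so was not counted. The log2 ratio differed by -0.36 (SE 0.072; exact two-sided permutation p = 0.0079, adjusted p = 0.0635), lower in 5 of 5 libraries, and also by -0.36 without the normoxic WT library of replicate 5. In KO the ratios were 31.7, 36.6, 32.2, 31.9 and 27.9 in normoxia and 29.1, 30.2, 26.9, 24.0 and 25.5 after OGD, so that the groups overlapped and 3 of 5 OGD libraries lay below all normoxic ones. The log2 difference there was -0.24 (SE 0.086; exact permutation p = 0.0238, adjusted p = 0.0952). miR-26b-5p made up 3.02% ± 0.30 of the reads with the miR-26 seed in normoxic WT neurons (3.03% without replicate 5) and 3.83% ± 0.15 after OGD, and 3.05% ± 0.28 and 3.57% ± 0.32 in KO (SD, n = 5).

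For the miR-26a hairpins, reads of both 3p arms were summed, since the 5p arm is common to both genes. Normoxic WT libraries 1 to 5 held 850, 925, 875, 913 and 910 reads of miR-26a-5p per 3p read, and the OGD libraries 1730, 1713, 6388, 2128 and 2469. The log2 ratio was higher after OGD by 1.49 (SE 0.35) in WT, without overlap, in 5 of 5 libraries (exact permutation p = 0.0079, adjusted p = 0.0635). The OGD library of replicate 3 had the highest ratio, from 5 reads of the 3p arms; without each library in turn the difference ran from 1.15 to 1.63, with 1.495 for the normoxic WT library of replicate 5.

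In KO the same ratio was 1007, 814, 808, 813 and 750 in normoxia and 1427, 984, 1097, 1686 and 2476 after OGD, with 4 of 5 OGD libraries above all normoxic ones. The log2 difference was 0.80 (SE 0.25, exact permutation p = 0.0159, adjusted p = 0.0847). Without the OGD KO library of replicate 2 the groups no longer overlapped, and the exact permutation adjusted p was 0.0423. At the floor of this test the adjusted p is set by how many of the 16 tests share the floor. The lower value arose because this ratio joined the WT ratios there, so it is no separate evidence for the ratio. The 3p arms were 0.111% ± 0.0040 of miR-26a reads in normoxic WT neurons (0.112% without replicate 5), 0.0429% ± 0.018 after OGD, and 0.120% ± 0.013 and 0.0717% ± 0.025 in KO (SD, n = 5).

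For Mir26b the log2 ratio of 5p to 3p differed by 0.40 in WT (SE 0.40; exact permutation p = 0.373, adjusted p = 0.566) and by 0.47 in KO (SE 0.28; p = 0.143, adjusted p = 0.363), with overlapping groups. The WT difference was 0.23 without the normoxic WT library of replicate 5 (exact permutation adjusted p = 0.726) and 0.13 without the OGD WT library of replicate 3 (adjusted p = 0.813), which held 1 read of miR-26b-3p. The log2 ratio of miR-26a-1-3p to miR-26a-2-3p differed by -0.68 in WT (SE 0.60; exact permutation adjusted p = 0.566) and 0.40 in KO (SE 0.47; adjusted p = 0.593), and the WT difference was -0.77 without that normoxic library (adjusted p = 0.622). It was -0.23 without the OGD WT library of replicate 2 and -0.44 without that of replicate 5. The KO difference was 0.11, 0.20 and 0.24 without the OGD KO libraries of replicates 5 and 4 and the normoxic KO library of replicate 3, and 0.69 without the OGD KO library of replicate 1. No call was made in any of these. miR-26a-1-3p made up 6.24% ± 1.27 of the miR-26a 3p reads in normoxic WT neurons (6.69% without replicate 5) and 5.99% ± 1.48 in normoxic KO neurons (SD, n = 5).

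**Figure D3:**
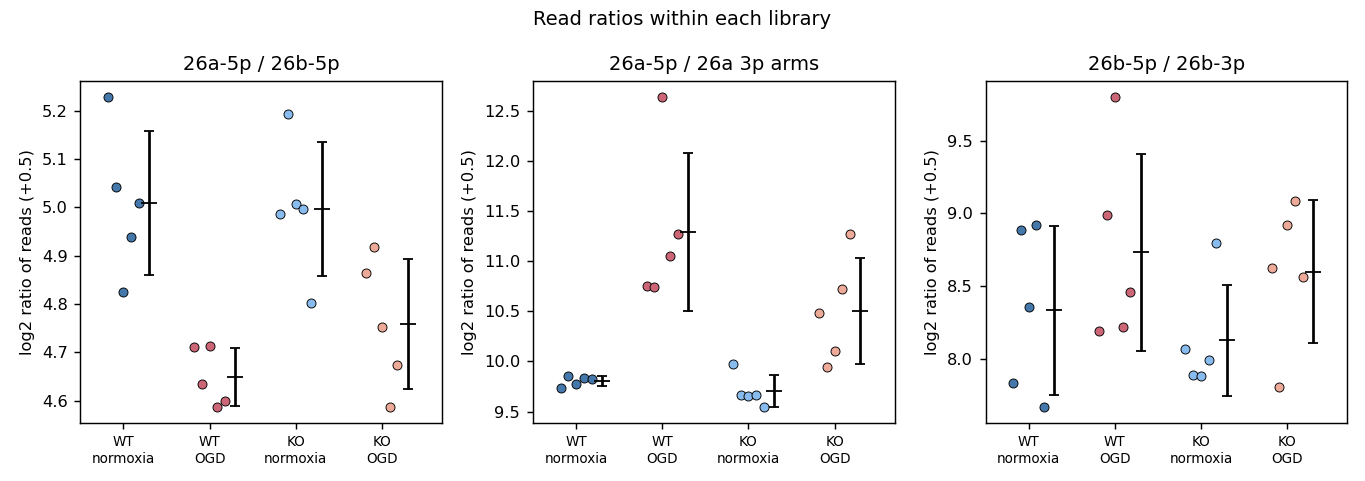
Log2 ratio of reads (0.5 added to each) within each of the 20 libraries for miR-26a-5p over miR-26b-5p (left), miR-26a-5p over its summed 3p arms (middle) and miR-26b-5p over miR-26b-3p (right); the dash with its bar is the mean ± SD of 5. OGD libraries of WT lie below normoxia in the left panel and above it in the middle one without overlap.

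Arm ratios moved in many hairpins after OGD, and in both directions. Among 184 pairs whose minor arm averaged at least 1 CPM, the ratio of major to minor arm was higher without overlap in 16.3% of pairs and lower without overlap in 17.4% in WT, and in 16.8% and 18.5% in KO. The median change was 0.050 in WT and -0.0021 in KO. Taken singly, miR-26a-5p over miR-26a-2-3p changed by 1.43 in WT, the 8th highest of the 184, and by 0.83 in KO, the 32nd. miR-26a-5p over miR-26a-1-3p changed by 2.11 in WT and by 0.43 in KO; 3 of 5 OGD libraries of WT held 0 reads of miR-26a-1-3p, so the WT value depends on the 0.5 reads added to each count, and its place among the pairs is not given. Both pairs share miR-26a-5p and so are not independent. miR-26b-5p over miR-26b-3p changed by 0.40 and 0.47, ranking 63rd and 57th. When the normoxic WT library of replicate 5 was left out, 20.1% of pairs were higher and 18.5% lower without overlap in WT, and the pairs of miR-26a-2-3p and miR-26b-3p ranked 10th (1.43) and 75th (0.23), while that of miR-26a-1-3p changed by 2.20.

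**Figure D4:**
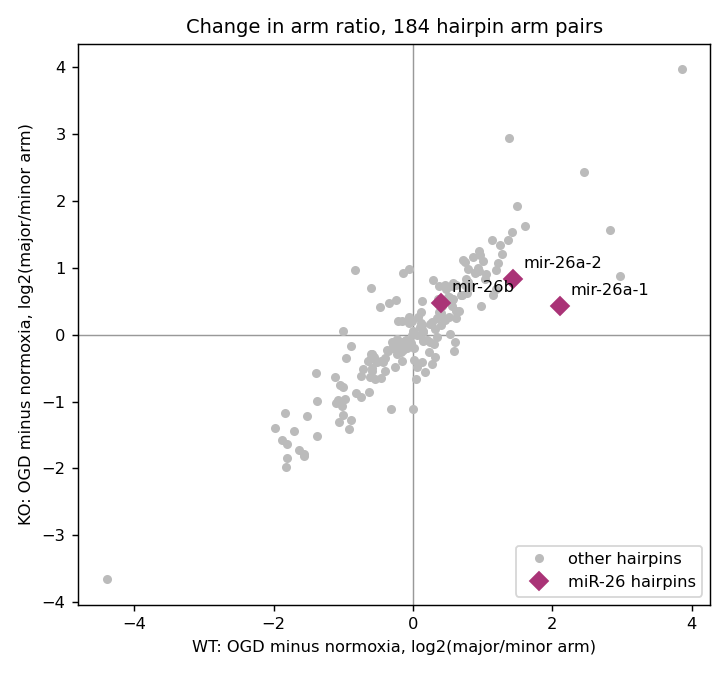
Change after OGD in the log2 ratio of major to minor arm for 184 arm pairs, in WT (horizontal axis) and KO (vertical axis); each point is a pair and the 3 miR-26 pairs are marked by their hairpin. The miR-26 pairs all lie above 0 on both axes, with mir-26a-1 and mir-26a-2 further along the WT axis than mir-26b.

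The genotype comparison asks whether loss of ciRS-7 changed the family. No member passed the test in normoxia or after OGD, and none of the 1481 features did, so that the share called was 0%. This 0 depends on the processing: 22 features were called after OGD without the OGD KO library of replicate 5. On the deposited scores 33 were called in normoxia and 72 after OGD. No miR-26 form was among them. At an unadjusted p under 0.05, 47 features passed in normoxia and 108 after OGD by limma, and limma voom also called 0 in each. In normoxia the log2 difference of KO from WT was 0.0012 for miR-26a-5p (95% interval -0.18 to 0.19), 0.013 for miR-26b-5p (-0.15 to 0.18) and 0.11 for miR-26a-2-3p (-0.15 to 0.36), with limma adjusted p from 0.984 to 1.00. For the rarer arms it was 0.020 for miR-26a-1-3p (-0.47 to 0.51) and 0.20 for miR-26b-3p (-0.35 to 0.74). Without the normoxic WT library of replicate 5 these 5 differences were -0.02, -0.01, 0.08, -0.09 and 0.31 in the same order, and none was called. Leaving out each library in turn, miR-26b-3p ran from 0.07 to 0.33.

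Nor did a read ratio pass between genotypes: over 8 tests the exact permutation adjusted p ran from 0.229 to 0.849. In normoxia the log2 ratio of miR-26b-5p to miR-26b-3p differed by -0.21, and by -0.37 without the normoxic WT library of replicate 5 (exact permutation adjusted p = 0.625 and 0.423); leaving out each library in turn gave -0.37 to -0.06. For the ratios of miR-26a-5p to miR-26b-5p and of miR-26a-1-3p to miR-26a-2-3p the differences were -0.01 and -0.11, and -0.01 and -0.21 without it. For miR-26a-5p over its 3p arms in normoxia the log2 difference of KO from WT was -0.10 (exact permutation adjusted p = 0.395). It was -0.09 without the normoxic WT library of replicate 5. It fell under the threshold only without the normoxic KO library of replicate 1 (difference -0.17, exact permutation adjusted p = 0.0423). That adjusted p again depends on a tie at the floor with the OGD ratios of WT, so it is no separate evidence for this ratio. The family share of reads differed by 0.0555 percentage points in normoxia (exact permutation p = 0.548), or by 0.0549 without the normoxic WT library of replicate 5, and by 0.0027 after OGD (p = 1).

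After OGD the log2 difference of KO from WT was 0.0017 for miR-26a-5p (95% interval -0.17 to 0.17, limma adjusted p = 0.997) and -0.11 for miR-26b-5p (-0.30 to 0.079, adjusted p = 0.861). The passenger arms of miR-26a had the highest values. miR-26a-1-3p was at 1.31 (0.42 to 2.21, unadjusted p = 0.0055, limma adjusted p = 0.410) and miR-26a-2-3p at 0.70 (0.11 to 1.30, unadjusted p = 0.022, adjusted p = 0.526). Both failed the correction, and 4 of 5 and 3 of 5 KO libraries lay above all WT libraries. Without the OGD WT library of replicate 3 the value of miR-26a-2-3p was 0.39. miR-26b-3p was at 0.065 (-0.73 to 0.86).

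Whether the OGD change differed between genotypes was tested as an interaction over all 20 libraries. No feature passed (74 at an unadjusted p under 0.05 by limma, 0 called by limma voom). The difference in OGD effect, KO minus WT, was 0.00047 for miR-26a-5p (95% interval -0.23 to 0.23), -0.12 for miR-26b-5p (-0.35 to 0.11), 0.60 for miR-26a-2-3p (-0.18 to 1.37), 1.29 for miR-26a-1-3p (0.33 to 2.26, unadjusted p = 0.010, limma adjusted p = 0.859) and -0.13 for miR-26b-3p (-1.03 to 0.77). Without the normoxic WT library of replicate 5 these were 0.026, -0.10, 0.62, 1.41 (limma adjusted p = 0.328) and -0.24 in the same order, and none was called. Leaving out each of the 20 libraries, miR-26a-1-3p ran from 1.15 to 1.54 (adjusted p from 0.328 to 0.999) and miR-26a-2-3p from 0.29, without the OGD WT library of replicate 3, to 0.80; miR-26b-3p ran from -0.41 to 0.0017. The calls of miR-26a-1-3p in WT and not in KO are therefore not shown to differ.

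Likeness of pattern was measured as Pearson's r of log2(CPM + 0.5) over the 20 libraries among the 247 features with a mean of at least 64 CPM. It is a description, since the libraries share depth and treatment. For miR-26a-5p the highest values were 0.87 for let-7d-3p, 0.86 for miR-181b-5p, 0.84 for miR-149-5p and 0.83 for miR-181d-5p; after subtracting the group means these were 0.81, 0.76, 0.73 and 0.71. For miR-26b-5p they were 0.96 for miR-652-3p, 0.95 for miR-23b-3p, 0.95 for miR-361-5p and 0.94 for miR-331-3p, and 0.69, 0.52, 0.46 and 0.43 after subtracting the group means. The 2 seed-sharing forms had an r of 0.67 with each other, which put miR-26b-5p 36th for miR-26a-5p and miR-26a-5p 88th for miR-26b-5p. Within groups it was 0.22.

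REST, with which the phosphatases of the miR-26 host genes act, also represses the genes of the neuronal miRNAs miR-9, miR-124, miR-132 and miR-212. Of their 8 arms, 3 were called higher and 3 lower in each OGD comparison, where 23.1% of all features were called in WT and 24.5% in KO, and 0 of 8 in either genotype comparison. With centred libraries 1 was called higher and 4 lower in each genotype. miR-9-5p, the most abundant feature, was then called lower (-0.56 in WT, limma adjusted p = 0.0034, and -0.40 in KO, adjusted p = 0.0055), while on the CPM scale it was at -0.02 and 0.08 and not called. With quantile normalization 1 was called higher and 3 lower in WT, and 2 and 3 in KO. The WT counts were again 3 and 3 when the normoxic WT library of replicate 5 was left out, and 3 and 2 on plain read totals. Their median log2 change was 0.11 in WT and 0.16 in KO, against 0.32 and 0.24 over all features. miR-124-3p, the guide arm of the most neuron-specific of them, was 3392 ± 491 CPM in normoxic WT neurons and 5628 ± 534 after OGD (SD, n = 5), a log2 change of 0.74 (limma adjusted p = 3.8e-05) that was 0.20 and not called in centred libraries. Its partner miR-124-5p was 346 ± 95.6 and 152 ± 25.0 CPM, a change of -1.15 (limma adjusted p = 5.2e-05) that stayed negative and called with centred libraries (-1.69). In KO the log2 changes were 0.56, or 0.08 with centred libraries, and -1.11. miR-212-3p changed by 1.25 and miR-212-5p by -0.61 in WT, and by 1.04 and -0.51 in KO, all 4 called; miR-212-3p in WT lost its call with quantile normalization (0.58, adjusted p = 0.096). miR-132-5p was called lower in both genotypes (-0.57 and -0.87), while miR-132-3p was called higher in WT (0.38, limma adjusted p = 0.046) and not in KO (0.37, adjusted p = 0.060), and miR-9-3p in KO (0.23, adjusted p = 0.030) and not in WT (0.24, adjusted p = 0.075). Neither passed the interaction test between genotypes (-0.0016 for miR-132-3p and -0.0032 for miR-9-3p, limma adjusted p = 1.00 and 0.996). With centred libraries miR-132-3p and miR-9-3p turned negative (WT -0.16 and -0.30, KO -0.11 and -0.25), none of these called. On plain read totals miR-132-5p and miR-132-3p lost their WT calls (limma adjusted p = 0.055 and 0.053), while miR-9-3p was called higher in WT (0.25, adjusted p = 0.018).

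Neuron markers moved with OGD. Their sum went from 70708 ± 12501 to 53458 ± 4479 CPM in WT and from 73440 ± 15301 to 54847 ± 4828 CPM in KO (SD, n = 5). Of the 5 neuron markers, 2 were called higher and 1 lower in WT and 3 and 1 in KO, where 23.1% and 24.5% of all features were called. With centred libraries the counts were 1 and 1 in WT and 1 and 2 in KO, and with quantile normalization 2 and 1 in WT and 2 and 0 in KO; on plain read totals they were 3 and 1 in each. On the CPM scale the lower one, miR-128-3p, made up most of the sum, at 60839 ± 13671 and 40381 ± 3761 CPM in WT. Endothelial markers summed to 347 ± 29.1 and 341 ± 37.6 CPM in WT normoxia and OGD and to 334 ± 33.7 and 310 ± 28.7 CPM in KO. miR-126a-3p carried most of that sum; it was not called on the CPM scale and was called lower with centred libraries (-0.60 in WT, limma adjusted p = 7.6e-04, and -0.61 in KO, adjusted p = 5.8e-04). The other endothelial marker, miR-126a-5p, was called higher in WT (0.57, limma adjusted p = 0.038) but not with centred libraries (0.03) or when the normoxic WT library of replicate 5 was left out (0.47, adjusted p = 0.063). Of the 3 oligodendrocyte markers, miR-338-3p was called higher in KO (0.75, limma adjusted p = 0.016), at a mean of 7.01 CPM, and not with centred libraries (0.27, adjusted p = 0.381). None of the 4 leukocyte and microglia markers was called in either OGD comparison. Left without that WT library, the normoxic WT sums were 69294 ± 13966 CPM for neuron and 337 ± 21.7 CPM for endothelial markers (SD, n = 4). The part of these shifts, and of the lower depth after OGD, in the miR-26 results was not tested beyond the thinned values above. In bulk libraries fewer cells of a type and less RNA per cell cannot be told apart.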

How the data were processed

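Small RNA libraries were prepared with a NEBNext kit after TRIzol extraction and size selection, per the labels' protocols; the build mm10 is per the submitters' processing notes, and the aligner and counter are not given in the sources used here. The authors deposited 6 tables, 1 per pair of groups, whose values are a score with no stated scale: they exceed the largest possible log2 CPM, 19.9. From the values, the score was a whole read count times a library factor raised to a power, with each group's extremes limited at the quantiles 0.16 and 0.84. Undoing both gave whole reads (tolerance 0.05) for 100% of values and no difference in 59070 comparisons between tables; the recovery was tested on simulated data. Because the deposited scores understate the spread within a group, tests used the recovered reads. CPM used the totals from the authors' library factors; shares used plain read totals.

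limma 3.58.1 (R 4.3.3; lmFit, eBayes with trend, two-sided) was fitted on log2(CPM + 0.5), each pair of groups on its 10 libraries and the interaction on all 20, with no covariate. On simulated counts this fit missed most of the modest changes put in, and more of its calls were false than the threshold implies, mostly among the rarest features. Ratios added 0.5 reads and, like shares, used exact permutation tests. No 2 replicates matched within sampling noise. Where nothing says that cultures came from separate embryos, p-values measure the spread between these libraries. Groups and replicate numbers came from each sample's description. The sample titles repeat the number across treatments within a genotype, without saying what it stands for. In each OGD comparison the correlation of same-numbered libraries passed 0.1 in 4 of 5 pairs, with a lowest value of -0.17 in WT and -0.22 in KO. Between genotypes it did so in 3 of 5 pairs in normoxia and 2 of 5 after OGD. Same-numbered libraries thus did not deviate together throughout, and numbers were not used as pairs in the main tests. Named features were the 5 members, their seed mates, the REST-linked list, and the 4 features most like each 5p form; the members and lists were chosen with earlier results of these data known. Sequences are from RefSeq and host introns from GENCODE. Alternatives were other pseudocounts, a filter, scalings, limma voom, thinning, the deposited values, a replicate block, leaving out each library and, chosen after seeing the data, CPM on plain read totals.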

Additional observations from a re-analysis of the deposited data

Results flagged for a closer look

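In 3 of 40 groups of 5 tested, 1 library stood apart from the other 4 by more than the gap expected of a single sample; chance gives about 1 in 20. The log2 ratio of miR-26b-5p to miR-26b-3p in the normoxic KO library of replicate 5 was 8.80, against 7.88 to 8.07 in the other 4. The log2 ratio of miR-26a-5p to its summed 3p arms was 12.64 in the OGD WT library of replicate 3, against 10.74 to 11.27. The same ratio was 9.98 in the normoxic KO library of replicate 1, against 9.55 to 9.67.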

How the results depend on the processing

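Beyond what stands in the report, the calls of members held as follows. In WT, miR-26b-5p kept its direction and call in 10 of 12 alternatives, and miR-26a-2-3p and miR-26a-1-3p in 11 of 12 each; in KO, miR-26b-5p and miR-26a-2-3p kept theirs in 10 of 12 each. The exceptions follow, and where no construction is named the cause was not tested.

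After OGD, limma voom called 693 features in WT and 784 in KO, and thinning left 229 and 231. Thinning left 1 member called in each genotype; in KO quantile normalization called 4 and the fit over all 20 libraries 1. On the deposited scores, 33 features were called between genotypes in normoxia and 72 after OGD, where thinning called 2 and the fit over all 20 libraries 4; thinning called 1 in the interaction. No miR-26 form was among the calls between genotypes or in the interaction. The deposited tables were normalized separately, so the interaction was not run on them.

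With centred libraries, OGD changes in WT were -0.37 for miR-26a-5p, -0.0093 for miR-26b-5p and -0.53 for miR-26b-3p, and in KO -0.31 and -0.073 for miR-26a-5p and miR-26b-5p. The replicate block with centred libraries gave the same values, -0.37, -0.0093, -0.53, -0.31 and -0.073, by construction. For miR-26b-3p in WT the sign also turned with a pseudocount of 0.25 CPM (-0.00013) and quantile normalization (-0.66). Thinned KO libraries gave 0.82 for miR-26a-1-3p and 0.13 for miR-26b-3p.

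Differences near 0 between genotypes changed sign, none of them called. In normoxia miR-26a-5p was at -0.030 with centred libraries, with and without the block, -0.020 with quantile normalization, -0.0057 with voom and -0.0020 thinned; miR-26b-5p was at -0.018 centred, with and without the block. miR-26a-1-3p was at -0.011 centred, with and without the block, -0.028 with voom and -0.66 thinned, and thinned miR-26a-2-3p and miR-26b-3p were at -0.057 and -0.023. After OGD miR-26b-3p was at -0.062 on the deposited scores and -0.10 with voom, and its interaction was 0.072 with quantile normalization and 0.033 thinned. CPM on plain read totals, chosen after seeing the data, changed no call of a member and put the interaction of miR-26a-5p at -0.024.

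The replicate numbers were entered as a block although they do not pair the libraries throughout. It called 389 features in WT and 403 in KO after OGD and changed no call of a member. A library was most like its own number in 4 of 5 cases in WT and 3 of 5 in KO. For shares and ratios the sign-flip form of the block cannot go below p = 0.0625, and the WT family share (0.372 points) then had an adjusted exact permutation p = 0.125. The KO family share was 0.503 points with miR-9-5p left out of the total.

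Leaving out 1 library at a time, the KO members called after OGD numbered 1 to 2, and features called between genotypes after OGD 0 to 22 (22 without the OGD KO library of replicate 5) and in the interaction 0 to 1. Ratios called numbered 0 to 1 in KO after OGD and 0 to 1 between genotypes in normoxia. Each of these calls had an adjusted p that depends on ties at the floor of the permutation test. The KO family share ran from 0.248 to 0.380 points, and between genotypes from -0.0052 to 0.115 in normoxia and from -0.069 to 0.049 after OGD. Uncalled log2 values that changed sign were miR-26b-3p after OGD in WT (-0.13 to 0.28), miR-26a-5p (-0.030 to 0.039), miR-26b-5p (-0.012 to 0.052) and miR-26a-1-3p (-0.093 to 0.12) between genotypes in normoxia, miR-26a-5p (-0.038 to 0.050) and miR-26b-3p (-0.21 to 0.20) after OGD, and the interactions of miR-26a-5p (-0.040 to 0.049) and miR-26b-3p (-0.41 to 0.0017). Among log2 ratios they were miR-26a-5p over miR-26b-5p (-0.061 to 0.043) and miR-26a-1-3p over miR-26a-2-3p (-0.21 to 0.051) between genotypes in normoxia and miR-26b-5p over miR-26b-3p after OGD (-0.27 to 0.14).

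Depth limits the 3p arms most, since 3 reads equal up to 2.55 CPM. How reads were divided between miR-26a-5p and miR-26b-5p rests on counting rules that are not given in the sources used here.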
